A study of Mus musculus with 4 samples.

Results

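The interferon-gamma-induced GTPases described here are 5 guanylate-binding proteins (Gbp2, Gbp3, Gbp4, Gbp5 and Gbp7) and 4 immunity-related GTPases (Iigp1, Igtp, Irgm1 and Irgm2). They were taken by name, as 9 of the 13071 genes of the table that joins a B16 and an LLC library, and all 9 had counts in every library. B16 is a mouse melanoma line and LLC is the Lewis lung carcinoma line; both were grown under the skin of mice and each library pooled the tumours of 3 mice. The B16 tumours and those of a CITE-seq library of LLC, in which antibody tags were read with the RNA, came from C57BL/6J mice. The other LLC library came from mice labelled F11r fl/fl LysM-Cre-, which carry a floxed F11r gene and lack the LysM-Cre transgene that would delete it in myeloid cells. No mouse group was labelled as treated. A second table holds the monocytes and tumour-associated macrophages (TAMs) of B16, LLC CITE-seq and LLC; each cell type and subset is named as the authors' deposited annotation names it.

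GBPs and IRGs are GTPases that cells make after interferon-gamma binds its receptor, JAK1 and JAK2 are activated, and factors such as IRF1 reach the promoters. GBPs are large GTPases that coat vacuoles and bacteria in the cytosol and help to open them to inflammasome sensors. IRGs come as effectors that bind such vacuoles, of which Iigp1 (also called Irga6) is one, and as regulators that guard the cell's own membranes, namely Irgm1, Irgm2 and Igtp (also called Irgm3). In tumours the same genes are read as a trace of interferon reaching a cell, and type I interferon can induce them too.

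The bases just before the transcription start are shown because factors such as IRF1 act there. RefSeq (GRCm38.p6) gave 8 promoters for 7 of the genes, and none was used here for Gbp4 and Iigp1. Capitals mark the letters GAAANNGAAA, an interferon-stimulated response element (ISRE) as bound by IRF1, and TTCNNNGAA, a gamma-activated site (GAS), read on both strands. Each line ends at the base before the start; 120 bases are shown, and 250 for Gbp5, whose elements lie farther out.
Gbp2, chr3:142620543-142620662, plus strand: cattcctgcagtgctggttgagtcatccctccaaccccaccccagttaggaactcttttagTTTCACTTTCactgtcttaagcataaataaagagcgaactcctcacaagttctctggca
Gbp3, chr3:142559924-142560043, plus strand: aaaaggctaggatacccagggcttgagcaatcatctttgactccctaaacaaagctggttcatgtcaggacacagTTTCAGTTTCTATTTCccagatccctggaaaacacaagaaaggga
Gbp5, chr3:142496684-142496933, plus strand: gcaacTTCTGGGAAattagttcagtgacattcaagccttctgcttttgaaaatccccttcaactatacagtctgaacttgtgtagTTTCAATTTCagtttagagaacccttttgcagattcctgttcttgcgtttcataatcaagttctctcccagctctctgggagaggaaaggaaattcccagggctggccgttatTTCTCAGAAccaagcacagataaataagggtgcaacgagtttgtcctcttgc
Gbp7, chr3:142530216-142530335, plus strand: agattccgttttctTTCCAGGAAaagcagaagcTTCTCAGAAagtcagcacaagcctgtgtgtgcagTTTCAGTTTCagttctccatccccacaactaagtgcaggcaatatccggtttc
Igtp, chr11:58199436-58199555, plus strand: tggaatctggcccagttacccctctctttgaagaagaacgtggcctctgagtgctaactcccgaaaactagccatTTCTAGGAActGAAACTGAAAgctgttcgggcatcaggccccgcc
Irgm1, chr11:48871421-48871540, minus strand: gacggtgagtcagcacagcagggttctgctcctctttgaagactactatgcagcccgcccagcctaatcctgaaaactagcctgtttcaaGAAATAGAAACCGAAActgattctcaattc
Irgm2, chr11:58214857-58214976, plus strand: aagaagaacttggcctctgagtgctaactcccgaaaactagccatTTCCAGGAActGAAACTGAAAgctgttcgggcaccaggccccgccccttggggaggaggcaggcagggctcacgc

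Of the 8 promoters, 7 held the ISRE letters within the 250 bases before and 50 bases after the start, against 3.44% of all 32851 mouse promoters in the table. The GAS letters were in 4 of the 8 (Gbp5, Gbp7, Igtp and Irgm2), against 8.30% of all promoters. No GAS match overlapped an ISRE match, while in Gbp3 and Irgm1 a pair of ISRE matches overlapped each other. Igtp and Irgm2 carry a GAS closely followed by an ISRE, at 45 and 34 bases before the start of Igtp and at 75 and 64 bases before the start of Irgm2. Laid on each other by that ISRE, with a shift of 30 bases, the 120 bases shown for Igtp had 103 alike in the promoter of Irgm2 (85.8%). The Irgm2 bases compared begin upstream of those shown. So this pair of neighbours shares most of the promoter letters compared. A second promoter of Gbp3 held neither. A match of letters describes the sequence and does not show a bound factor.

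The genes lie in few places of the mouse genome (GRCm38, the mm10 build). Gbp5, Gbp7, Gbp3 and Gbp2 follow each other on the plus strand of chromosome 3, between positions 142493978 and 142638008. Gbp4 lies on chromosome 5 (105115767 to 105139586, minus strand), and Iigp1 on chromosome 18 (60376027 to 60392634, plus strand). Igtp (58199556 to 58207591, plus strand) and Irgm2 (58199618 to 58222782, plus strand) overlap on chromosome 11, and Irgm1 lies apart from them (48861968 to 48871683, minus strand). Igtp and Irgm2 share 162 exonic bases, which are 8.01% of Igtp and 4.39% of Irgm2, so reads there cannot be assigned to 1 of them. The GBPs are also close in sequence, and the counts of neighbours such as Gbp4 and Gbp8 may be split unevenly between them.

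The joint table held 6870 B16 cells (72355330 unique molecular identifiers, UMIs; median 8315 per cell) and 13021 LLC cells (93977259 UMIs; median 6174). The macrophage table held 2297 B16, 10131 LLC CITE-seq and 8155 LLC cells, with median UMIs of 9250, 4546 and 6530; its LLC cells are all cells of the joint table too. The GTPases took 53461 UMIs of the B16 library and 14428 of the LLC library. Levels are given as counts per 1000000 UMIs (CPM) summed over the cells of a type. Each group is 1 library, so there is no replicate error and no test: a gene counts as higher or lower from 1.5-fold on, with at least 20 UMIs over both libraries and 50 cells in each. Intervals (95%, exact binomial for ratios and shares, exact Poisson for CPM) cover counting error only. Between B16 and LLC the tumour line, the mouse strain label and the library cannot be told apart. The libraries shared 29 cell barcodes in the joint table. Of the 5 melanocyte markers, 4 were found in B16 cells of the subset named Mono/TAM IFN, at 34.6 CPM in sum, and all 5 are listed at 0 there in both LLC libraries.

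Across the B16 tumour, GTPase RNA was found in every class of immune cell, and its peak differed from gene to gene. Summed over all 9 genes it stood at 1482 CPM in the macrophage cluster Imm TAM-3, 1317 CPM in the regulatory T cells named Tregs-1, 1190 CPM in cDC2 (conventional type 2 dendritic cells) and 940 CPM in TAM-3. The lowest B16 value was 224 CPM in plasma cells. In LLC the order was steeper: Imm TAM-3 stood at 1418 CPM, naive T cells at 578 CPM and NK cells at 272 CPM, while cDC2 stood at 139 CPM and the lowest cluster, Imm TAM-2, at 58.9 CPM. So the highest clusters of both tumours were alike in level. The clusters were annotated on the same RNA, and 79.8% of LLC Imm TAM-3 cells are named Mono/TAM IFN in the macrophage table. The height of Imm TAM-3 over other clusters is therefore a description and not a finding.

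**Figure D1:**
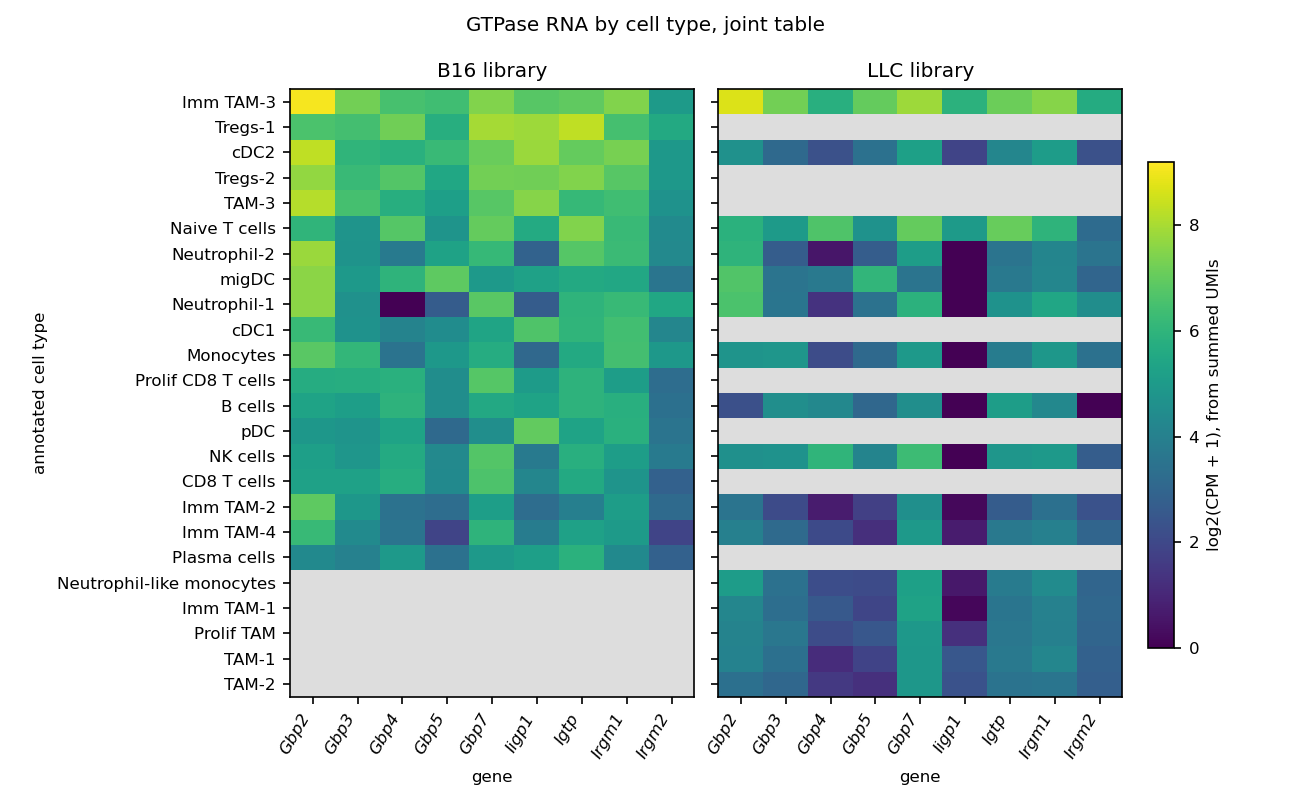
Level of each GTPase, as log2(CPM + 1) with yellow high and dark purple low, in each cell type of the B16 library (left) and the LLC library (right); grey marks cell types with fewer than 50 cells. In B16 green and yellow run over most rows, whereas in LLC the brightest row is Imm TAM-3, with naive T cells next.

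Gbp2, whose lipid-anchored protein binds to vacuoles and bacteria, peaked in the macrophage cluster Imm TAM-3 of both tumours. Its level was 541 CPM in B16 Imm TAM-3, then 322 CPM in cDC2 and 286 CPM in TAM-3, each apart from the next beyond counting error. In LLC it stood at 424 CPM in Imm TAM-3 and 102 CPM in migDC (migratory dendritic cells), followed by Neutrophil-1 at 96.6 CPM, Neutrophil-2 at 62.2 CPM and naive T cells at 58.4 CPM, while its other macrophage clusters lay between 9.40 and 17.6 CPM. Gbp3 and Irgm1 also peaked in Imm TAM-3 of both tumours, at 149 CPM in B16, against 150.1 CPM in LLC for Gbp3, and at 176 CPM in B16, against 182 CPM in LLC for Irgm1. For Irgm1 the next B16 cell type, cDC2 at 157 CPM, was not apart from Imm TAM-3 beyond counting error.

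Gbp4, Gbp7, Igtp, Iigp1 and Irgm2 were highest in Tregs-1 among the B16 cell types. Igtp, an IRG regulator, stood at 322 CPM there, against 174 CPM in the next cluster. Gbp7 stood at 247 CPM and Gbp4 at 145 CPM in Tregs-1, both apart from the next cell type beyond counting error. Iigp1, the IRG effector, stood at 233 CPM in Tregs-1 and 225 CPM in cDC2, which were not apart beyond counting error. Nor were they for Irgm2, at 46.6 CPM in Tregs-1 and 43.5 CPM in Neutrophil-1. All 7 T cell markers were found in Tregs-1, at 5444 CPM in sum, with macrophage markers at 691 CPM. The cluster named Tregs-2 held macrophage markers at 7310 CPM and T cell markers at 1955 CPM, which goes against its name, so its values are not read as T cell values. In LLC, Tregs-1 had too few cells, and Gbp4 was highest in naive T cells (100.1 CPM), followed by NK cells (64.1 CPM) and Imm TAM-3 (55.2 CPM), neighbours whose intervals overlapped.

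Gbp5, the GBP best known for promoting inflammasome assembly, differed from the others in B16 by its peak in migDC. It stood there at 119 CPM, against 83.2 CPM in Imm TAM-3 and 74.5 CPM in cDC2. It made up 20.7% of the GTPase UMIs of B16 migDC. In LLC it was highest in Imm TAM-3 (129 CPM), with migDC second at 65.1 CPM. Iigp1 ranged widely over cell types: in B16 plasmacytoid dendritic cells (pDC) it was 35.2% of all GTPase UMIs, at 125 CPM, yet it stood at 7.58 CPM in B16 monocytes. In LLC it had 0 UMIs in 1955 neutrophils, 998 monocytes, 131 NK cells and 88 migDC; for monocytes, 3 counts would be 0.516 CPM.

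Monocytes and macrophages taken as 1 class were the largest compartment, with 2742 B16 and 9194 LLC cells. All 9 GTPases were at least 1.5-fold higher in B16 there, where 11.9% of the 11261 measured genes were. The class is not the same mix in both tumours. TAM-3 had 1292 B16 and 7 LLC cells, TAM-1 had 6 and 1619, and Imm TAM-1 had 31 and 1522. The ratios of the class thus compare partly different clusters, and clusters with enough cells in both are described below. Their summed level was 927 CPM in B16, against 149 CPM in LLC. The median ratio of the 9 was 5.24, and the median log2 ratio of 2.39 stands beside one of -0.02 over all measured genes.

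Among the GBPs of this class, Gbp4 (52.0 CPM in B16, 4.71 CPM in LLC) and Gbp2 (296 CPM in B16, 31.8 CPM in LLC) stood farthest apart. Gbp3 followed with 91.4 CPM in B16, against 15.3 CPM in LLC, a ratio of 5.96 (5.57 to 6.37). Gbp5 stood at 40.1 CPM in B16, against 7.65 CPM in LLC, a ratio of 5.24 (4.75 to 5.78). Gbp7 had the smallest ratio, 2.97 (2.83 to 3.12), with 112 CPM in B16, against 37.8 CPM in LLC. Gbp7 was the most abundant GTPase transcript by UMIs in LLC (25.4% of the 9 genes' UMIs, 12.1% in B16), while Gbp2 was in B16 (32.0%, against 21.4% in LLC).

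The IRGs differed in their ratios in this class. The effector Iigp1 had 4697 UMIs in B16 and 337 in LLC, and made up 15.2% of the GTPase UMIs in B16 and 2.94% in LLC. The regulators stood nearer to each other between the tumours: Igtp at 73.4 CPM in B16, against 16.3 CPM in LLC (ratio 4.49, 4.19 to 4.81), Irgm1 at 95.8 CPM in B16, against 22.4 CPM in LLC (4.27, 4.02 to 4.53), and Irgm2 at 25.0 CPM in B16, against 8.36 CPM in LLC (2.99, 2.70 to 3.32). The ratios of the 3 regulators were each below that of Iigp1, with intervals that do not overlap its interval of 28.7 to 36.0. T and NK cell markers were also higher in these B16 cells, all 12 of 12 measured, at 162 CPM in B16, against 9.93 CPM in LLC. Without the cells that had a UMI of Cd3e, Cd3d, Cd3g, Trbc1, Trbc2, Cd8a, Nkg7 or Gzmb, the count stayed at 9 of 9, and the same cells are meant below where cells with T or NK UMIs are left out.

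**Figure D2:**
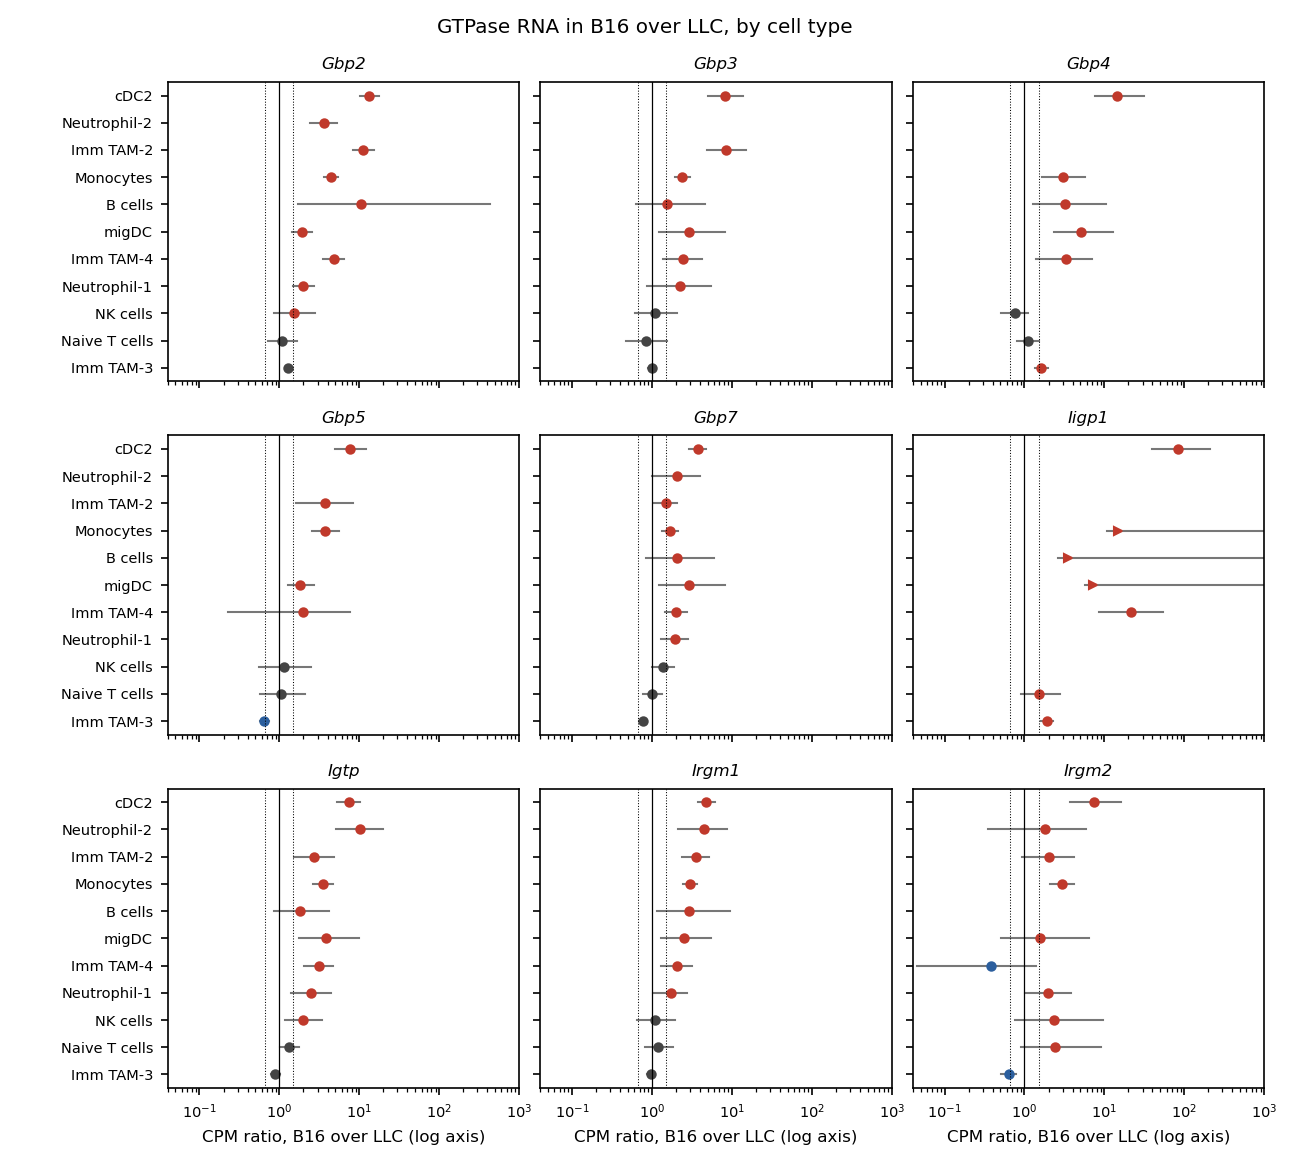
Ratio of each GTPase's level in B16 over LLC (log axis) with its 95% counting interval, in each cell type with 50 cells in both libraries. Red is at least 1.5-fold higher in B16, blue at least 1.5-fold lower, dark between; triangles are lower bounds, dotted lines mark 1.5-fold, and a gene with too few UMIs in a cell type to be measured has no point there. In cDC2 all 9 points are red, in Imm TAM-3 they scatter around 1.

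Single myeloid cell types are described next. In cDC2, all 9 were higher in B16 (9.48% of measured genes were), with a median ratio of 7.68. The ratios of the regulators lay there within the range of those of the GBPs: Igtp had 128 CPM in B16, against 17.5 CPM in LLC (ratio 7.33, 5.32 to 10.3), and Irgm2 had 28.8 CPM in B16, against 3.88 CPM in LLC (7.41, 3.75 to 16.3). The cDC2 markers did not reach 1.5-fold in either direction. T and NK markers in cDC2 stood at 151 CPM in B16, against 48.1 CPM in LLC, and neutrophil markers at 21.6 CPM in B16, against 941 CPM in LLC. Without cells with T or NK UMIs 9 of 9 were higher; the part of the neutrophil markers in the result was not tested.

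In monocytes, all 9 were higher in B16 (11.2% of measured genes were, and 8.27% were lower), but the ratios were smaller, with a median of 3.04. Gbp7 stood at 50.9 CPM in B16 monocytes and 30.4 CPM in LLC monocytes (1.67, 1.33 to 2.10), Igtp at 47.7 CPM in B16, against 13.6 CPM in LLC (3.51, 2.63 to 4.70). Iigp1 had 21 UMIs in B16 monocytes and 0 in LLC monocytes, which makes it at least 14.7-fold higher. T and NK markers in monocytes stood at 93.2 CPM in B16, against 4.99 CPM in LLC, and without cells with T or NK UMIs the count was again 9 of 9.

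In neutrophils, 7 of 7 measured GTPases were higher in B16, but so were 30.9% of all measured genes, a high background. Gbp2 stood at 202 CPM in B16 neutrophils and 75.0 CPM in LLC neutrophils (2.69, 2.13 to 3.39), and took nearly the same share of the GTPase UMIs, 37.5% in B16 and 39.2% in LLC. Igtp had the largest ratio, 4.77 (3.09 to 7.30), with 76.3 CPM in B16, against 16 CPM in LLC. Gbp4 and Iigp1 had under 20 UMIs over both libraries. By subcluster, 6 of 6 were higher in Neutrophil-1 (26.1% of measured genes) and 5 of 5 in Neutrophil-2 (31.8%). In these neutrophils T and NK markers stood at 133 CPM in B16, against 12.8 CPM in LLC; their part in the result was not tested.

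In migDC, all 9 were higher in B16 (15% of measured genes were), with a median ratio of 2.87. Gbp4 led with 61.9 CPM in B16, against 12.3 CPM in LLC (5.03, 2.34 to 12.9), and Iigp1, with 55 UMIs in B16 and 0 in LLC, was at least 7.17-fold higher. Gbp5, the gene that peaks in these cells in B16, had one of the smaller ratios, 1.83 (1.28 to 2.69). T and NK markers in migDC stood at 736 CPM in B16, against 45.7 CPM in LLC, and without cells with T or NK UMIs the count was 8. With cells thinned to 2000 UMIs, the log2 ratio of Irgm2, 1.57-fold on all counts, was -0.13. In B cells, 7 of 7 were higher (17.6% of measured genes were, and 13.8% were lower), on few counts: Gbp2 had 29 UMIs in B16 and 1 in LLC, and Igtp 45 UMIs in B16 and 9 in LLC. For B cells, T and NK markers stood at 1810 CPM in B16, against 225 CPM in LLC, and neutrophil markers at 734 CPM in B16, against 8123 CPM in LLC; their part in the result was not tested.

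Naive T cells and NK cells of both tumours stood closer together than their B cells. In naive T cells, the summed level was 670.0 CPM in B16, against 578 CPM in LLC, and 2 of 9 passed 1.5-fold, where 11.1% of measured genes did. Those were Iigp1 (47.9 CPM in B16, 31.3 CPM in LLC; ratio 1.53, 0.898 to 2.81) and Irgm2 (20.2 CPM in B16, 8.35 CPM in LLC; 2.41, 0.896 to 9.14), and both intervals include 1. Gbp7, the gene with the smallest ratio in monocytes and macrophages taken as 1 class, was at 129 CPM in both (0.999, 0.762 to 1.33). In NK cells, 3 of 8 passed (15.5% of measured genes did, and 9.31% were lower by as much): Gbp2 at 1.51 (0.854 to 2.81), Igtp at 1.95 (1.17 to 3.37) and Irgm2 at 2.33 (0.760 to 9.51). T and NK markers in NK cells stood at 12975 CPM in B16, against 6841 CPM in LLC. In naive T cells they stood at 7809 CPM in B16, against 6664 CPM in LLC. Neutrophil markers in NK cells stood at 59.5 CPM in B16, against 1894 CPM in LLC. The part of these markers in the result was not tested. The log2 ratio of Gbp2 in NK cells was -0.43 with cells thinned to 2000 UMIs.

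Imm TAM-3 was the macrophage cluster in which B16 and LLC did not stand apart in sum, at 1482 CPM in B16 (637 cells) and 1418 CPM in LLC (426 cells). Only Iigp1 and Gbp4 were higher in B16, 2 of 9 where 10.6% of measured genes were. Iigp1 stood at 111 CPM in B16, against 58.6 CPM in LLC (1.89, 1.60 to 2.25), and Gbp4 at 90.0 CPM in B16, against 55.2 CPM in LLC (1.63, 1.36 to 1.95). Gbp5 and Irgm2 were lower, 2 of 9 where 11.6% of measured genes were: Gbp5 at 83.2 CPM in B16, against 129 CPM in LLC (0.646, 0.564 to 0.741), Irgm2 at 31.5 CPM in B16, against 49.8 CPM in LLC (0.632, 0.506 to 0.791). The other 5 lay between 0.762 for Gbp7 and 1.28 for Gbp2. Macrophage markers were close, at 7440 CPM in B16, against 8231 CPM in LLC, but neutrophil markers stood at 113 CPM in B16, against 3615 CPM in LLC, and T and NK markers at 99.1 CPM in B16, against 11.5 CPM in LLC. Without cells with T or NK UMIs the count of higher genes was again 2; the part of the neutrophil markers in the result was not tested.

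The neighbouring immature clusters did stand apart. In Imm TAM-2, 7 of 7 were higher in B16 (9.42% of measured genes were), from Gbp7 at 34.3 CPM in B16, against 22.8 CPM in LLC (1.5, 1.07 to 2.08) to Gbp2 at 119 CPM in B16, against 10.6 CPM in LLC (11.2, 8.42 to 15.1). In Imm TAM-4, 8 of 9 were higher (14.6% of measured genes were), and Irgm2 was lower at 0.379 on 2 B16 UMIs (0.0455 to 1.39), a direction that turned with thinned cells (log2 ratio 1.70). Imm TAM-4 is not the same mix in both tumours: 56.5% of its B16 cells are named Immature TAM-1 in the macrophage table, while of its LLC cells 0.150% are, with 48.4% named TAM-3 and 29.6% TAM-2. In Imm TAM-2, 73.1% of the B16 and 73.3% of the LLC cells are named Mono/TAM Hypoxic. T and NK markers stood at 74.7 CPM in B16, against 9.04 CPM in LLC for Imm TAM-2, and at 88.7 CPM in B16, against 13.5 CPM in LLC for Imm TAM-4; without cells with T or NK UMIs, 6 of the genes were higher in Imm TAM-2.

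The place of the transcripts within the macrophages differed between the tumours. In B16, TAM-3 held 47.1% of the cells and 63.3% of all UMIs of the class, close to its 64.2% of the GTPase UMIs, and it held 83.3% of those of Iigp1. B16 Imm TAM-3 held 17.3% of all UMIs and 27.7% of the GTPase UMIs. In LLC, Imm TAM-3 held 4.63% of the cells and 3.83% of all UMIs of the class. It held 36.5% of the GTPase UMIs, 51.0% of those of Gbp2 and 51.3% of those of Iigp1. Most of these LLC cells (79.8%) are named Mono/TAM IFN in the macrophage table, on the same RNA, so these shares only describe.

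The table of monocytes and macrophages adds the LLC CITE-seq library, whose mice share the C57BL/6J label with those of B16. Over all its cells, the 9 genes summed to 918 CPM in B16, 199 CPM in LLC CITE-seq and 158 CPM in LLC. The mix of subsets differed here too: TAM-1 had 941 cells in B16, 4 in LLC CITE-seq and 2 in LLC. All 9 were higher in B16 than in LLC CITE-seq (11% of measured genes were), from 2.33 (2.21 to 2.46) for Gbp7 to 19.0 (17.0 to 21.2) for Iigp1. All 9 were also higher in B16 than in LLC in this table (11.9% of measured genes were), from 2.84 for Gbp7 to 25.1 for Iigp1; both comparisons share the B16 library. T and NK markers over all cells of this table stood at 53.6 CPM in B16, 9.46 CPM in LLC CITE-seq and 4.27 CPM in LLC, higher in B16 than in LLC CITE-seq for 10 of 11 measured, higher in B16 than in LLC for 11 of 11, and higher in LLC CITE-seq than in LLC for 10 of 10. Without cells with T or NK UMIs, 9 of 9 GTPases were higher in B16 in both comparisons; the part of these markers between the LLC libraries was not tested. Between the LLC libraries, which differ in the strain label, the antibody staining and the library, 1 of 9 passed (3.03% of measured genes did): Gbp4, at 8.31 CPM in LLC CITE-seq and 5.24 CPM in LLC (1.59, 1.37 to 1.83). Over all cells, the spread between the libraries of 1 tumour line ran from 1.07 for Irgm1 to 1.59 for Gbp4. This was smaller than each of the 9 ratios between B16 and either of them. Within subsets it did not always hold. In Mono/TAM Hypoxic, Gbp4 was at 3.28 for LLC CITE-seq over LLC (12 and 11 UMIs), while the ratios of B16 over LLC CITE-seq began at 1.40. In Mono/TAM IFN, Iigp1 was at 0.562 for LLC CITE-seq over LLC, where the median ratio of B16 over LLC was 1.25.

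**Figure D3:**
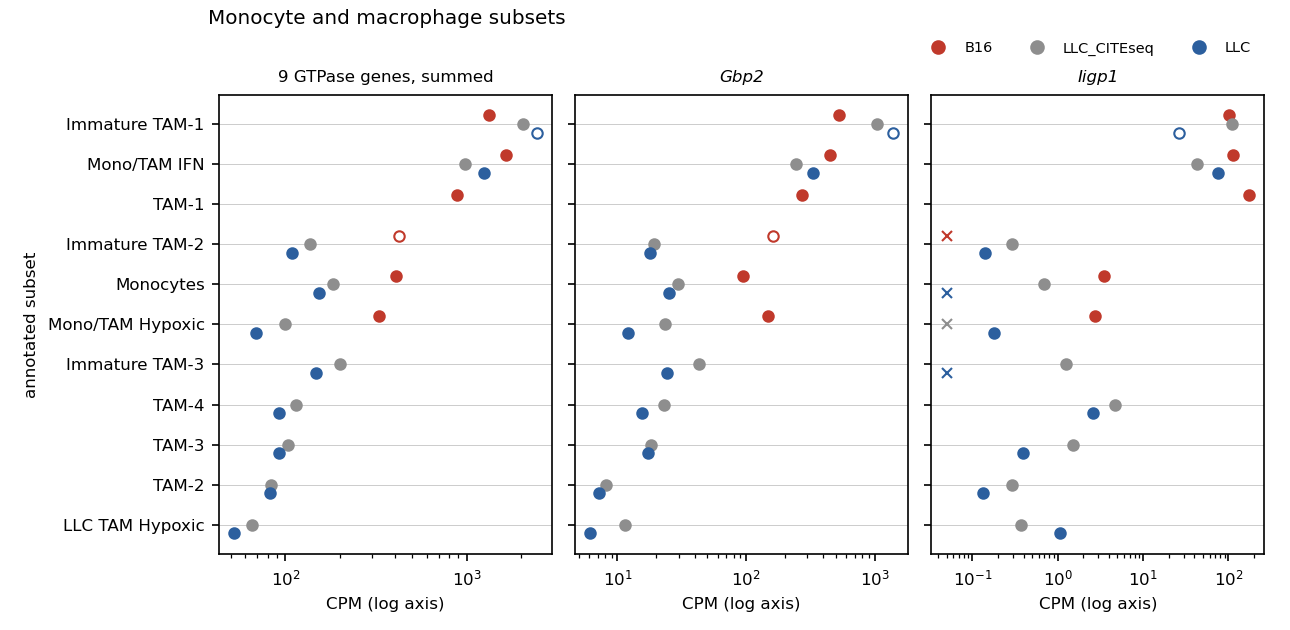
Summed level of the 9 GTPases and the levels of Gbp2 and Iigp1 (CPM, log axes) in the subsets of the monocyte and macrophage table for B16, LLC CITE-seq and LLC, without error bars; open circles are subsets with 20 to 49 cells, and crosses at the left edge mark 0 UMIs. In the subset named Mono/TAM IFN and in Immature TAM-1 the summed level is high in all 3 libraries; in monocytes and in Mono/TAM Hypoxic B16 stands above both LLC libraries.

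Monocytes and hypoxic cells of this table followed the whole. In hypoxic cells (Mono/TAM Hypoxic), the sum was 329 CPM in B16, 99.6 CPM in LLC CITE-seq and 68.7 CPM in LLC. There 8 of 8 were higher in B16 than in LLC (12.6% of measured genes were), with Gbp2 at 149 CPM in B16, against 12.1 CPM in LLC (12.3, 9.32 to 16.4), and 6 of 7 were higher than in LLC CITE-seq (10.5%). T and NK markers of the hypoxic cells stood at 73.2 CPM in B16, 7.62 CPM in LLC CITE-seq and 6.87 CPM in LLC. Without cells with T or NK UMIs, 8 were higher in B16 than in LLC and 5 than in LLC CITE-seq. In monocytes the sum was 409 CPM in B16, 184 CPM in LLC CITE-seq and 153 CPM in LLC, and 8 of 8 were higher than in LLC (10.3% of measured genes were, 7.52% lower) and 7 of 8 than in LLC CITE-seq (10.3% higher, 7.13% lower). The T and NK markers of monocytes stood at 59.4 CPM in B16, 9.94 CPM in LLC CITE-seq and 3.69 CPM in LLC.

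The subset Mono/TAM IFN was named by the authors on this RNA, so its height over other subsets is not a finding, and it is used for levels between libraries. The sum was 1639 CPM in B16 (158 cells), 981 CPM in LLC CITE-seq (858 cells) and 1245 CPM in LLC (437 cells). Against LLC, 3 of 9 were higher in B16 (8.09% of measured genes were): Gbp4 at 2.11 (1.63 to 2.74), Irgm1 at 1.78 (1.56 to 2.04) and Iigp1 at 1.52 (1.23 to 1.88). Against LLC CITE-seq, 6 of 9 were higher (8.52% of measured genes were, 26% lower), with Gbp5 (1.09, 0.896 to 1.32), Gbp7 (1.19, 1.04 to 1.35) and Irgm2 (1.13, 0.808 to 1.57) between. Between the LLC libraries no GTPase was higher (7.21% of measured genes were) and Iigp1 was lower (4.17% were), at 42.3 CPM in LLC CITE-seq and 75.2 CPM in LLC (0.562, 0.460 to 0.686). Here T and NK markers stood at 62.4 CPM in B16, 13.5 CPM in LLC CITE-seq and 10.7 CPM in LLC. This small subset held 9.58% of the GTPase UMIs in B16, 37.9% in LLC CITE-seq and 38.1% in LLC.

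Immature TAM-1 was a B16 subset of 518 cells with 76 cells in LLC CITE-seq and 25 in LLC, and it held the highest Gbp2 level of both LLC libraries. Gbp2 stood at 530 CPM in B16 (2786 UMIs) and 1046 CPM in LLC CITE-seq (415 UMIs), a ratio of 0.507 (0.457 to 0.563); the 25 LLC cells gave 1390 CPM and were not compared. Gbp5 followed the same direction with 66.2 CPM in B16, against 194 CPM in LLC CITE-seq (0.341, 0.266 to 0.443), and so did Igtp with 100.6 CPM in B16, against 154 CPM in LLC CITE-seq (0.655, 0.502 to 0.868). These 3 of 9 were lower in B16, where 14.2% of measured genes were; Irgm2 alone was higher (16.4% of measured genes were), at 1.75 with an interval of 0.783 to 4.85. Macrophage markers stood at 8796 CPM in B16, against 9924 CPM in LLC CITE-seq. T cell markers summed to 32.3 CPM in B16, and all 7 were at 0 in LLC CITE-seq.

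In the remaining subsets the LLC libraries could be compared, and between 0 and 5 genes passed in each. In Immature TAM-3, 5 of 8 were higher in LLC CITE-seq than in LLC (8.31% of measured genes were), led by Igtp at 20.1 CPM in LLC CITE-seq and 11.2 CPM in LLC (1.79, 1.09 to 3.09). In TAM-4, 3 of 9 were higher (4.08%), namely Gbp4, Gbp5 and Iigp1, and in TAM-3, Iigp1 alone was (3.38%), with 17 UMIs in LLC CITE-seq and 4 in LLC. In TAM-2, 0 of 7 passed (3.69%), in Immature TAM-2, 1 of 8 (6.1%), in the LLC hypoxic macrophages, 2 of 6 (5.2%), in Mono/TAM Hypoxic, 3 of 8 (10.4%), and in monocytes, 1 of 8 (5.22%). The subset with the lowest sum was the LLC hypoxic macrophages, with 65.1 CPM in LLC CITE-seq and 52.3 CPM in LLC.

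GTPase RNA did not stand in a fixed proportion to genes that type I interferon induces. Per UMI of 20 type I genes (such as Ifit1, Isg15 and Rsad2), macrophages and monocytes held 0.382 GTPase UMIs in B16 and 0.154 in LLC, cDC2 held 0.575 in B16 and 0.158 in LLC, and naive T cells 0.663 in B16 and 0.462 in LLC. Among the cell types of the joint table, the values were highest in B16 proliferating CD8 T cells, at 0.933, and B16 Tregs-1, at 0.881. At the low end were neutrophils, at 0.110 in B16 and 0.0784 in LLC, and B16 pDC at 0.0854, in which the type I genes themselves were high (4156 CPM in sum). The type I genes include Bst2, which was also listed as a pDC marker, and its part in the pDC value was not tested.

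Imm TAM-3 showed the difference between the gene groups at an equal GTPase level. Its type I genes summed to 5029 CPM in B16, against 9108 CPM in LLC, and 16 of 20 were lower in B16, among them Cmpk2 at 0.370 and Ifit1 at 0.450. Over all measured genes there, 11.6% were lower and 10.6% higher. Of 20 other measured interferon-gamma targets, 8 were higher in B16 and 1 lower: Ciita, the master factor of MHC class II, at 4.97 (3.86 to 6.51) and Cxcl9, whose product draws T cells, at 3.36 (3.12 to 3.62) were higher, and Cxcl10 at 0.438 (0.424 to 0.451) was lower. The median log2 ratio was -0.99 for the type I genes and 0.48 for the other targets, against 0.01 over all measured genes. GTPases per type I UMI were 0.295 in B16 and 0.156 in LLC. The clusters are not the same mix in both tumours: 63.0% of B16 Imm TAM-3 cells are named Immature TAM-1 in the macrophage table and 23.1% Mono/TAM IFN, while 79.8% of the LLC cells are named Mono/TAM IFN. Within subsets, the value was 0.680 in B16 and 1.21 in LLC CITE-seq for Immature TAM-1, and 0.122 in B16, 0.127 in LLC CITE-seq and 0.141 in LLC for Mono/TAM IFN.

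**Figure D4:**
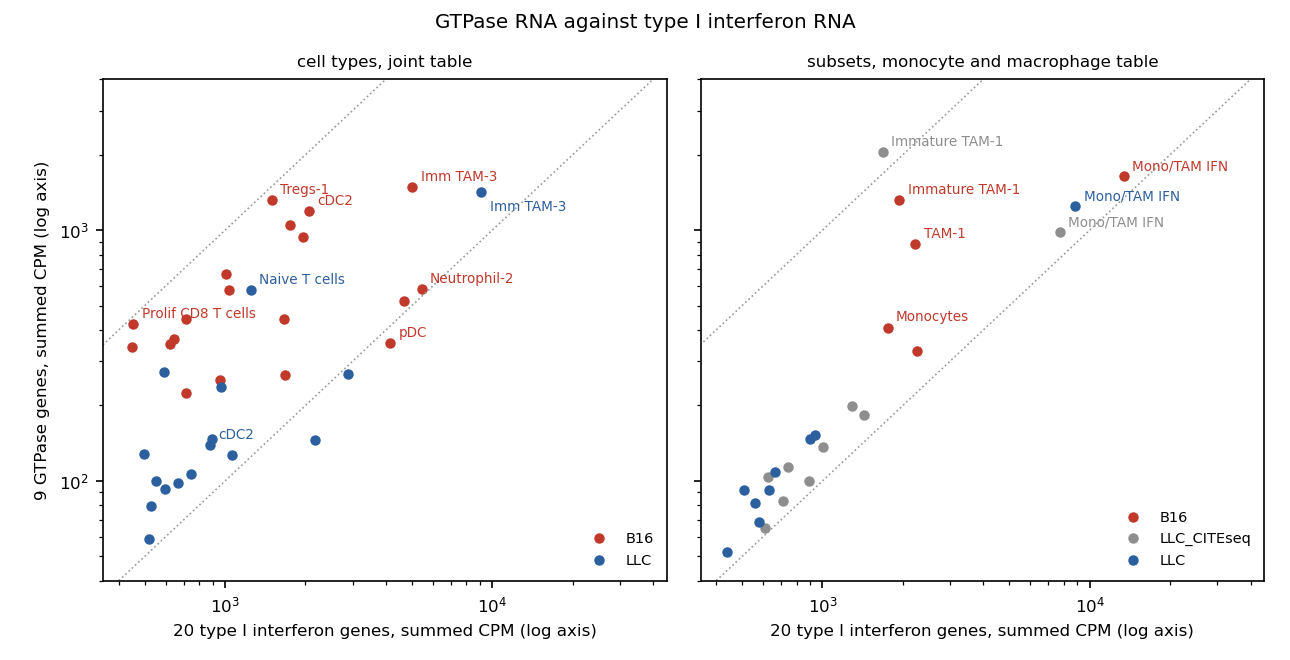
Summed level of the 9 GTPases (CPM, log axis) against the summed level of 20 type I interferon genes (CPM, log axis), a point for each cell type or subset, by library; dotted lines mark 0.1 and 1 GTPase UMI per type I UMI. Neutrophils, pDC and Mono/TAM IFN lie near the 0.1 line, whereas Tregs-1, proliferating CD8 T cells and Immature TAM-1 lie near the 1 line.

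The genes that carry the interferon-gamma signal moved in part with the GTPases. Of 11 measured in monocytes and macrophages, 5 were higher in B16 and none was lower, where 11.9% of all measured genes were higher and 11.9% lower. These were the factor Irf1 (111 CPM in B16, 22.1 CPM in LLC, a ratio of 5.0), Batf2 (6.25), Stat2 (2.27), Irf8 (1.61) and the ligand gene Ifng (127 UMIs in B16, 5 in LLC). T and NK markers stood at 162 CPM in these B16 cells, against 9.93 CPM in LLC, and their part in the Ifng counts was not tested. The receptor chains and kinases did not pass: Ifngr1 stood at 169 CPM in B16, against 253 CPM in LLC (0.669), Ifngr2 at 0.848, Jak1 at 0.983 and Jak2 at 0.987. The median log2 ratio of the list was 0.37, against -0.02 over all measured genes. In Imm TAM-3, Irf1 was at 171 CPM in B16, against 114 CPM in LLC. In cDC2, Irf1 was at 148 CPM in B16, against 29.1 CPM in LLC. In migDC, Irf1 was at 245 CPM in B16, against 239 CPM in LLC, while 9 of 9 GTPases were higher.

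Ifng itself was a T and NK cell transcript. It stood at 711 CPM in B16 CD8 T cells and 524 CPM in proliferating CD8 T cells, against 20.4 CPM in Tregs-1. Per cell type it was lower in B16 than in LLC in NK cells (76.3 CPM in B16, 157 CPM in LLC) and in naive T cells (43.6 CPM in B16, 148 CPM in LLC). The B16 CD8 T cells had a GTPase sum of 343 CPM and Ifngr2, the signalling chain of the receptor, at 6.22 CPM; Tregs-1 had a sum of 1317 CPM and Ifngr2 at 15.5 CPM.

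Beyond the 9, other listed GTPases and GTPase-like genes in monocytes and macrophages took the same direction, 6 of 7 measured. Higher were Gm4951 at 21.6, Gbp8 at 17.0, the IRG Ifi47 at 4.46, Gbp9 at 2.83, Mx1 at 2.48 and Gvin1 at 2.11. Irgq, whose induction by interferon was not examined, lay between at 0.731. Gbp2b (972 UMIs), Gbp6 (464), Tgtp2 (459), F830016B08Rik (443), Tgtp1 (136) and Gbp10 (87) had counts over the whole B16 library and are listed at 0 over the whole LLC library. That library lists 1517 genes at 0 and none in fewer than 3 cells, so a 0 there may be a filter and no ratio is given. Of 20 other interferon-gamma targets, 17 were higher in B16 and 1 lower, from Serpina3g at 86.7 down to Ncf1, a subunit of the phagocyte oxidase, at 0.499. Of 20 type I genes, 18 were higher, with Ifi44 first at 6.51 and Trim30a last at 1.23. Over all measured genes of this class, 11.9% were higher and 11.9% lower. The median log2 ratio was 1.5 for the other GTPases, 1.32 for the other targets and 1.49 for the type I genes.

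Of 6 brakes of the pathway in this class, 2 were higher in B16: Socs1, which blocks the JAKs, at 6.45 and Usp18, which dampens the type I receptor, at 1.88; Pias1 was at 1.08. Of 17 measured partners of the GTPases at membranes and inflammasomes, 3 were higher, Casp4 at 1.90, Casp1 at 1.67 and Pycard at 1.57. Among these partners Nlrp3 was lower at 0.531, and their median log2 ratio was 0.07. Over all measured genes of this class, 11.9% were higher and 11.9% lower, so the counts of partners lie near the share of all genes. Of 6 measured genes of the cytokines upstream, 5 were higher, from Il18bp, the decoy of interleukin 18, at 18.1, while Il18 lay between at 0.764. In naive T cells, whose GTPases stood close, 1 of 17 other interferon-gamma targets was higher and 1 lower, and 5 of 18 type I genes were lower. There 11.1% of all measured genes were higher and 15.5% lower.

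Over 35 points (19 B16 and 16 LLC cell types with 50 cells), the genes outside the families whose log2(CPM + 10) followed the mean of the 9 most closely were Parp9 (Pearson r 0.89), Nmi (0.856), Parp14 (0.843), Dtx3l (0.840), Fam26f (0.830), Zbp1 (0.824), Tap1 (0.812), Ifit1bl1 (0.804), Ifit3 (0.803) and H2-T22 (0.803), among 5973 genes ranked. For these genes r lay between 0.462 and 0.767 over the B16 points alone and between 0.704 and 0.951 over the LLC points alone. Among the GTPases over all 35 points, the pair most alike was Gbp3 and Irgm1 (0.854) and the least alike Gbp4 and Irgm2 (0.373). Gbp2 and Gbp4 had 0.413. The pair most alike differed within a library, with Irgm1 and Irgm2 in B16 (0.822) and Igtp and Irgm1 in LLC (0.892). The points share libraries and differ in depth, so these values only describe. Of the 10 pairs of GBPs, Gbp2 and Gbp4 were the least alike.

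Cell by cell, with each cell thinned to 2000 UMIs, 61.7% of B16 and 18.4% of LLC monocytes and macrophages had a UMI of at least 1 of the 9 genes. Unthinned, the shares were 87.7% in B16 and 44.5% in LLC, at medians of 10187.5 UMIs in B16 and 6944 UMIs in LLC. In cDC2 the thinned shares were 62.4% in B16 and 20.4% in LLC (unthinned 90.4% in B16 and 46.5% in LLC). In Imm TAM-3 they were 80.1% in B16 and 78.5% in LLC (unthinned 97.3% in B16 and 96.0% in LLC, at medians of 8309 UMIs in B16 and 5952.5 UMIs in LLC). No cell type here is known to lack these genes, so the background from free RNA was not measured. The lowest thinned shares were 24.1% in B16 plasma cells, at a median of 25870 UMIs, and 11.2% in LLC Imm TAM-2, at 4963.5 UMIs. They set no upper limit for shallower cells, such as B16 B cells at a median of 2432.5 UMIs.

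**Figure D5:**
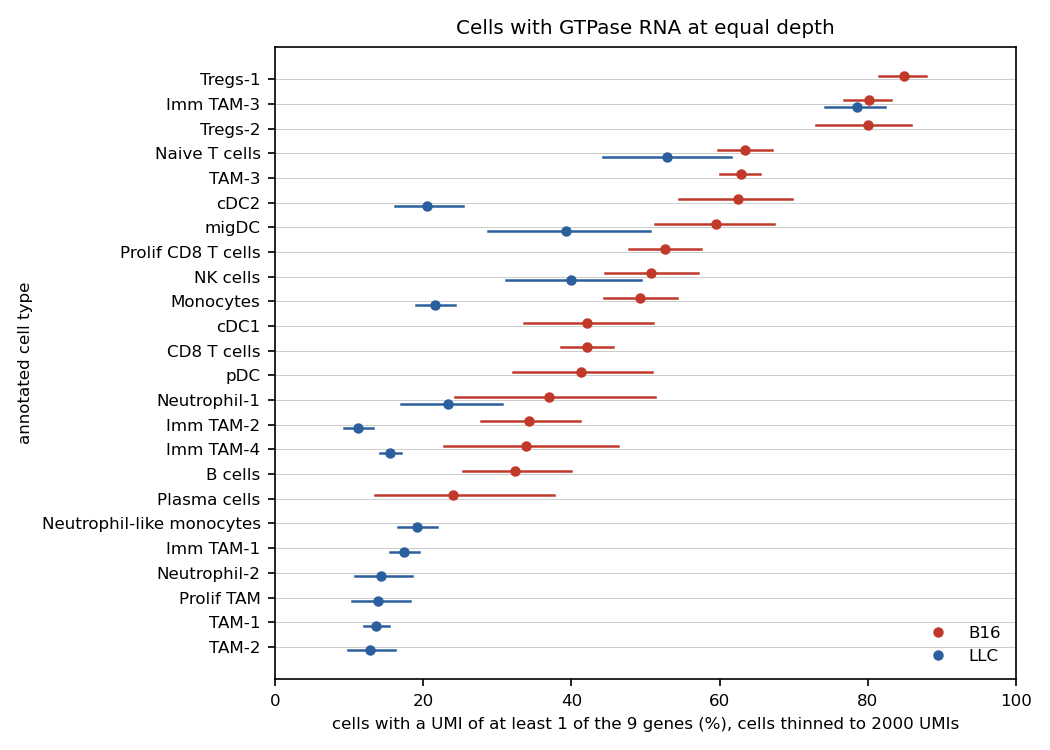
Share of cells (%) with a UMI of at least 1 of the 9 GTPases after thinning each cell to 2000 UMIs, by cell type, for B16 and LLC; bars are exact 95% binomial intervals, and cell types need 50 cells left at that depth. In Imm TAM-3 both tumours lie near 80%, at 80.1% in B16 and 78.5% in LLC; in cDC2 they lie at 62.4% in B16 and 20.4% in LLC.

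B16 had the larger share in all 11 cell types and merged classes that could be compared at this depth. The merged classes, monocytes with macrophages and neutrophils, hold cells that also lie in the single cell types. In Imm TAM-3, NK cells, naive T cells and Neutrophil-1 the intervals of B16 and LLC overlapped. Tregs-1 of B16 stood highest, at 84.9% (unthinned 96.5%). In neutrophils the shares were 36.1% in B16 and 17.2% in LLC, but 213 B16 and 1450 LLC cells were too shallow and were left out. Cells with several of the genes were close in frequency in Imm TAM-3 of both tumours: 49.6% of B16 and 52.7% of LLC cells had at least 2 of the 9. In that cluster the genes were found together. For Gbp5, another of the 9 was found in 93.1% of B16 cells with a Gbp5 UMI and 76.9% of those without. In LLC the shares were 92.5% of cells with it and 73.5% of those without. Gbp5 was not apart from other members beyond counting error: for cells with Gbp4 the shares were 89.8% in B16 and 92.1% in LLC.

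The antibody tags of LLC CITE-seq give protein at the surface of the same subsets, for products of interferon-induced genes; none of the 172 tags reads a GTPase, which stay inside the cell. In tags per 10000, MHC class II (IA-IE) stood at 1839 in Immature TAM-1, 777 in Mono/TAM IFN and 624 over all cells, but also at 1093 in TAM-3, whose GTPase sum was 103 CPM. The checkpoint ligand CD274 stood at 97.8 in Immature TAM-1, 65.6 in Mono/TAM IFN and 49.1 over all cells. It was above Mono/TAM IFN in Mono/TAM Hypoxic (92.2) and in the LLC hypoxic macrophages (87.8), subsets with GTPase sums of 99.6 and 65.1 CPM, so these tags did not follow the order of GTPase RNA over subsets. Ly6A-Ly6E (129 in Immature TAM-1, 138 in Mono/TAM IFN, 58.9 over all cells) and CD317, the product of Bst2 (20.4 in Immature TAM-1, 35.2 in Mono/TAM IFN, 15.9 over all cells), were higher in Mono/TAM IFN. The 9 isotype controls lay between 0.354 and 12.7 over all cells. With 1 library, these are values with no test.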

How the data were processed

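The deposited tables hold UMI counts per gene and cell from 10x Genomics libraries, made by the authors with Cell Ranger on mm10, per the submitters' processing notes. Version, gene models and cell filters: not given in the sources used here. Cell types come from the authors' deposited annotation, which rests on the same RNA. Antibody tag counts of the CITE-seq library, deposited by the authors, were summed per subset. Libraries differed in depth (medians of 4546 to 9250 UMIs per cell in the macrophage table), and UMIs are summed over cells, so a level is a mean weighted by depth.

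UMIs were summed per library and cell type with Python 3.11.15 (numpy 2.4.6, pandas 2.3.3, scipy 1.17.1) and divided by the total. Genes with at least 20 UMIs over both libraries entered a ratio, unless listed at 0 over a whole library; a gene at 0 in 1 cell type was set to the floor of 3 counts. The error rate of the call at 1.5-fold in small cell types and between libraries was not tested. Doublets stayed in; scanpy 1.11.5 scored them for an alternative without the highest 6%. The 9 genes were named for this report, with the 10 genes most like them, and of each list the largest and smallest ratio; further genes were chosen after their values were seen. The genes and lists were chosen with earlier results of these data known. Alternatives were another scaling, another fold or minimum, the mean over cells, thinned cells, the names of the B16 table alone, and cells left out by T or NK UMIs or doublet score. A gene not reported here was left out of the list of signal genes and of the ranking by likeness.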

Additional observations from a re-analysis of the deposited data

Results flagged for a closer look

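Some genes moved one way in 1 cell type and the other way in another under the same comparison; each group is 1 library, so none of these differences was tested. For B16 over LLC, Gbp5 had a ratio of 7.68 in cDC2 and 0.646 in Imm TAM-3. Irgm2 had a ratio of 7.41 in cDC2 and 0.379 in Imm TAM-4, the second on 2 B16 UMIs. For B16 over LLC CITE-seq, Gbp2 had a ratio of 6.38 in Mono/TAM Hypoxic and 0.507 in Immature TAM-1. Gbp5 had 2.35 in monocytes and 0.341 in Immature TAM-1, and Igtp 2.48 in monocytes and 0.655 in Immature TAM-1. For LLC CITE-seq over LLC, Iigp1 had a ratio of 3.92 in TAM-3, on 17 UMIs in LLC CITE-seq and 4 in LLC, and 0.562 in Mono/TAM IFN.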

How the results depend on the processing

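No paired analysis was possible because each group is 1 library. Of 207 recomputed counts, 162 stayed within 1.5 times the reported one, and with a scaling by the median ratio of genes all 32 did. The 9 of 9 in monocytes and macrophages, monocytes and cDC2 stayed within that range under every alternative run. For B16 over LLC, a minimum of 100 UMIs left 3 genes higher in neutrophils, 0 in B cells, 3 in Imm TAM-2, 5 in Imm TAM-4, 0 in NK cells, 1 in naive T cells, 2 in Neutrophil-1, 1 in Neutrophil-2 and 2 in migDC; fewer genes are then measured. With the whole interval past 1.5-fold, 2 were left in B cells, 1 in Imm TAM-3, 3 in Imm TAM-4, 0 in NK cells, 0 in naive T cells, 0 in Neutrophil-1, 3 in Neutrophil-2 and 3 in migDC. At 2-fold, the counts were 0 in Imm TAM-3, 1 in NK cells, 1 in naive T cells, 2 in Neutrophil-1 and 1 in Mono/TAM IFN. The mean of cell CPM gave 1 in Imm TAM-3 and 3 in Neutrophil-2, and no minimum gave 8 in Neutrophil-2. Names of the B16 table gave 4 in B cells and 1 in naive T cells; thinning to 2000 UMIs, or leaving out 412 B16 and 781 LLC cells with the highest doublet scores, also gave 1 in naive T cells.

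For B16 over LLC CITE-seq, 2-fold left 0 in Immature TAM-1 and 2 in Mono/TAM IFN. For LLC CITE-seq over LLC, 2-fold left 0 over all cells, 0 in Immature TAM-2, 0 in Immature TAM-3, 0 in the LLC hypoxic macrophages, 1 in Mono/TAM Hypoxic, 0 in monocytes and 0 in TAM-4; the mean of cell CPM gave 2 in Immature TAM-2, 0 in monocytes, 1 in TAM-2 and 1 in TAM-4; thinning gave 3 in monocytes and 0 in TAM-3. At 3000 UMIs per cell, B16 had the larger share of cells in 7 of 8 cell types or merged classes. With cells thinned to 2000 UMIs, 4 log2 ratios of B16 over LLC reversed: Irgm2 in Imm TAM-4 (1.70), Gbp2 in NK cells (-0.43), Irgm2 in migDC (-0.13) and Gbp7 in Mono/TAM Hypoxic (-0.015). Apart from the measured minimum and the stricter calls, the cause was not tested.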
